A study of Homo sapiens with 21 samples.

Results

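The KO Control of this series is a pair of RNA sequencing libraries (replicates 1 and 2) of THP1 cells, labelled as the control of the knockout arm. It was compared with the 3 other control libraries that have values, namely shRNA Control replicates 1 and 3 and WT replicate 2. The libraries were grouped by their labels, with no measured value in the grouping, but the comparison was chosen with earlier results of these data known. The 5 control libraries are 5 of the 19 in the deposited table. The other 14 are 8 libraries of single-cell clones (ATF7 KO clones 1 and 2 and JDP2 KO clones 1 and 2, 2 libraries each) and 6 libraries of IRF2BP2 knockdown (shRNA1 and shRNA2, 3 libraries each). The labels list 21 libraries, of which 2 carry a low-quality remark (replicate 2 of shRNA Control and replicate 1 of WT) and were not analysed here. All groups are the same leukaemia line in the same serum-containing medium, and no stimulus is given for any of them. Knockdown used hairpins in the pLKO.1 vector, and the knockouts used Lenti-CRISPRv2 constructs followed by limiting dilution, per the labels' protocols. The labels do not say which construct the KO Control or the shRNA Control carries, or whether the KO Control is 1 clone or a mixed population. Nothing in the labels says that replicates came from separate cultures, so the spread behind each p-value may be technical.

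THP1 is a monocytic acute myeloid leukaemia line that grows in suspension and can be driven towards macrophages. A knockout control is meant to share the handling of the edited cells (delivery of the vector, selection and often passage through few cells) without loss of the studied gene. A line grown from few cells can keep the genome and the expression state of its founders. In a leukaemia line both can vary from cell to cell. Messages compared here came from mixed lysates, in which fewer cells of a type and less RNA per cell cannot be told apart.

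Reads in genes numbered 36.3 and 49.8 M (mega) in KO Control replicates 1 and 2, against 34.3 to 36.8 M in the 3 other control libraries. At least 1 read was found for 15123 and 18490 genes in the KO Control libraries, against 14620 to 16063 genes in the others. Of 19 defining markers of THP1 monocytic cells, 17 were tested and 0 were called by limma (2 at an unadjusted p under 0.05). DESeq2 called 1 of them (IRF8, lower). ANPEP, the surface aminopeptidase CD13, had 27530 and 26940 normalized counts in KO Control, against 26210, 21240 and 27980 in shRNA Control replicate 1, shRNA Control replicate 3 and WT replicate 2. All later values follow that order of the 3 other control libraries. LYZ, which encodes lysozyme, had 32250 and 23940 in KO Control, against 12310, 19540 and 76330. IRF8 had 2918 and 2935 in KO Control, against 5257, 5332 and 6147, a log2 difference of -0.93 ± 0.22 (SE, limma adjusted p = 0.145). Markers of lymphoid, erythroid and megakaryocytic, epithelial and stromal cells also had 0 members called by limma, and DESeq2 called 1 (IGLL1, a lymphoid marker, lower). Their summed levels overlapped between the groups for lymphoid (18640 and 14201 in KO Control, against 13600 to 19858), erythroid (2820 and 4468, against 3506 to 3716) and stromal markers (8648 and 7562, against 7579 to 17895), while epithelial markers summed to 262 and 303 in KO Control, against 314 to 454. CD3D, IGHM, GYPB, HBG1, HBG2 and PF4 were at 0 in all 5 libraries. In the 35 lists of genes without a limma call, which hold these markers and 829 tested genes in all, 81 genes had an unadjusted p under 0.05, edgeR called 0 and DESeq2 31. Over all 12360 genes tested these counts were 1182, 18 (0.146%) and 256 (2.07%). The targeted genes were not called: IRF2BP2 had a log2 difference of -0.001 ± 0.26 (SE), ATF7 of 0.22 ± 0.38 (SE) and JDP2 of 0.16 ± 0.28 (SE), with limma adjusted p of 1.0, 0.96 and 0.966. The sign of all 3 depended on which KO Control library was left out: ATF7 differed by 0.64 without replicate 1 and -0.20 without replicate 2, IRF2BP2 by -0.26 and 0.26, and JDP2 by -0.13 and 0.44.

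KO Control was compared with the other controls to show which messages set it apart from cells that the study also used as control. Messages that rose in KO Control included those of UROD, an enzyme of heme synthesis, the histone variant H2AZ1, the complex III subunit UQCR10 and the ribosomal protein RPL10, all at about 4 times the level of the other controls. Those that fell included the opioid precursor PDYN, the homeobox gene SIX5 and the tumour necrosis factor ligand CD70. Of 12360 genes tested by limma on log2(normalized count + 1), 33 passed a Benjamini-Hochberg adjusted p of 0.05 (0.267%), of which 20 rose (0.162%) and 13 fell (0.105%). In all 33 the 2 KO Control libraries did not overlap the 3 others, as was the case for 1450 genes above (11.7%) and 1484 genes below (12%) among all those tested. The unadjusted p was under 0.05 for 1182 genes. The count of calls rested on single libraries: it was 0 without WT replicate 2, 210 without KO Control replicate 1, 55 without KO Control replicate 2 and 64 without shRNA Control replicate 3. By edgeR 18 genes were called (0.146%), 15 higher and 3 lower, and by DESeq2 256 (2.07%), of which 145 were higher and 111 lower. With equal library totals 9 were called, 7 higher and 2 lower.

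**Figure D1:**
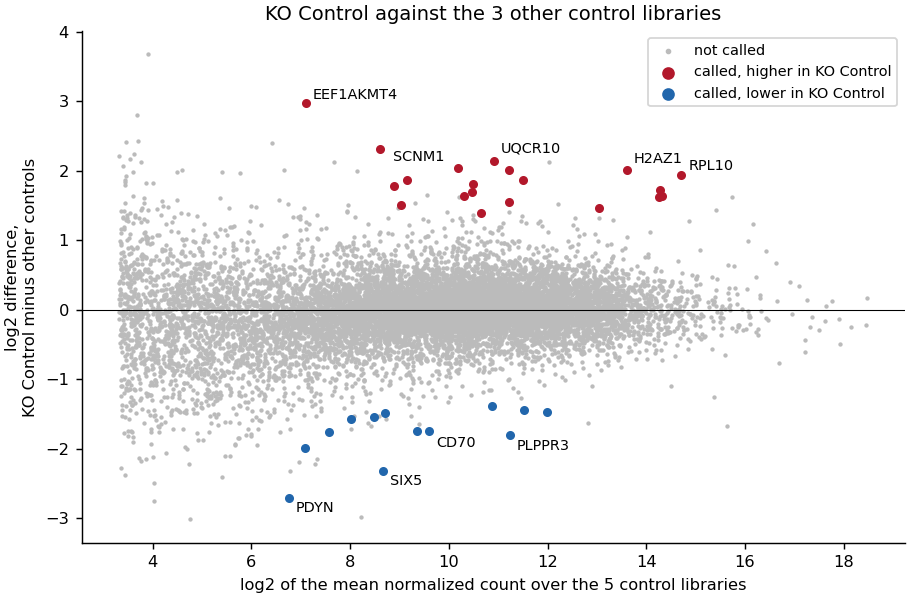
Each point is 1 of 12360 genes, with the log2 of its mean normalized count over the 5 control libraries on the x axis and its log2 difference (KO Control minus the 3 other controls, on the log2(count + 1) scale) on the y axis. The 20 genes called higher are red and the 13 called lower are blue; their mean counts span those of PDYN to those of RPL10.

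Among the genes called by limma the largest rise was that of EEF1AKMT4, which encodes a lysine methyltransferase of the elongation factor eEF1A. It had 230 and 346 normalized counts in KO Control, against 52.7, 23.4 and 35.0 in the other controls, a log2 difference of 2.97 ± 0.41 (SE, limma adjusted p = 0.0235). Both KO Control libraries were more than 4 times as high as the highest of the others. ABCF2, an ATPase of the ABC-F family, had 836 and 654 in KO Control, against 186, 139 and 125, a difference of 2.32 ± 0.27 (adjusted p = 0.0187). UQCR10, a small subunit of respiratory complex III, had 2596 and 4649 in KO Control, against 972, 762 and 668, a difference of 2.13 ± 0.29 (adjusted p = 0.0235). KO Control replicate 2 was the higher of the pair for EEF1AKMT4 and UQCR10 and the lower for ABCF2. SCNM1, a factor of minor-intron splicing, had 2040 and 2210 in KO Control, against 597, 487 and 480, a difference of 2.03 ± 0.22 (adjusted p = 0.0187). UROD, the uroporphyrinogen decarboxylase of heme synthesis, had 4303 and 4313 in KO Control, against 1590, 913 and 849, a difference of 2.01 ± 0.29 (adjusted p = 0.0235). The KO Control libraries were nearly equal for UROD, and shRNA Control replicate 1 was the highest of the others, as it was for the 4 genes above. The annotated places are EEF1AKMT4 at chr3:184249650-184259585 (plus strand), ABCF2 at chr7:151212490-151227230 (minus strand), UQCR10 at chr22:29767369-29770413 (plus strand), SCNM1 at chr1:151156664-151170297 (plus strand) and UROD at chr1:45012147-45015575 (plus strand) (GENCODE 29, GRCh38).

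H2AZ1, a gene for the histone variant H2A.Z, had 21520 and 23430 in KO Control, against 7972, 4914 and 4463, a log2 difference of 2.00 ± 0.29 (SE, limma adjusted p = 0.0235). RPL10, a protein of the large ribosomal subunit, had 41410 and 54420 in KO Control, against 15380, 12130 and 10350, a difference of 1.93 ± 0.28 (adjusted p = 0.0235). KO Control replicate 2 was the higher library for both genes. TRAPPC4, a subunit of the TRAPP tethering complex of vesicle traffic, had 1165 and 850.5 in KO Control, against 380, 278 and 191 (1.87 ± 0.31, adjusted p = 0.0397). SNU13, which binds the U4 and box C/D small RNAs, had 5153 and 5108 in KO Control, against 1617, 1327 and 1301 (1.86 ± 0.22, adjusted p = 0.0187). HYPK, a partner of the NatA acetyltransferase, had 2391 and 2629 in KO Control, against 932, 719.7 and 548 (1.81 ± 0.26, adjusted p = 0.0235). In each of these 5 genes the lower KO Control library was more than 2 times as high as the highest of the others, which the plot of called genes shows. The annotated places are H2AZ1 at chr4:99948086-99950388 (minus strand), RPL10 at chrX:154389955-154409168 (plus strand), TRAPPC4 at chr11:119018432-119025454 (plus strand), SNU13 at chr22:41673930-41690504 (minus strand) and HYPK at chr15:43796142-43803043 (plus strand).

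**Figure D2:**
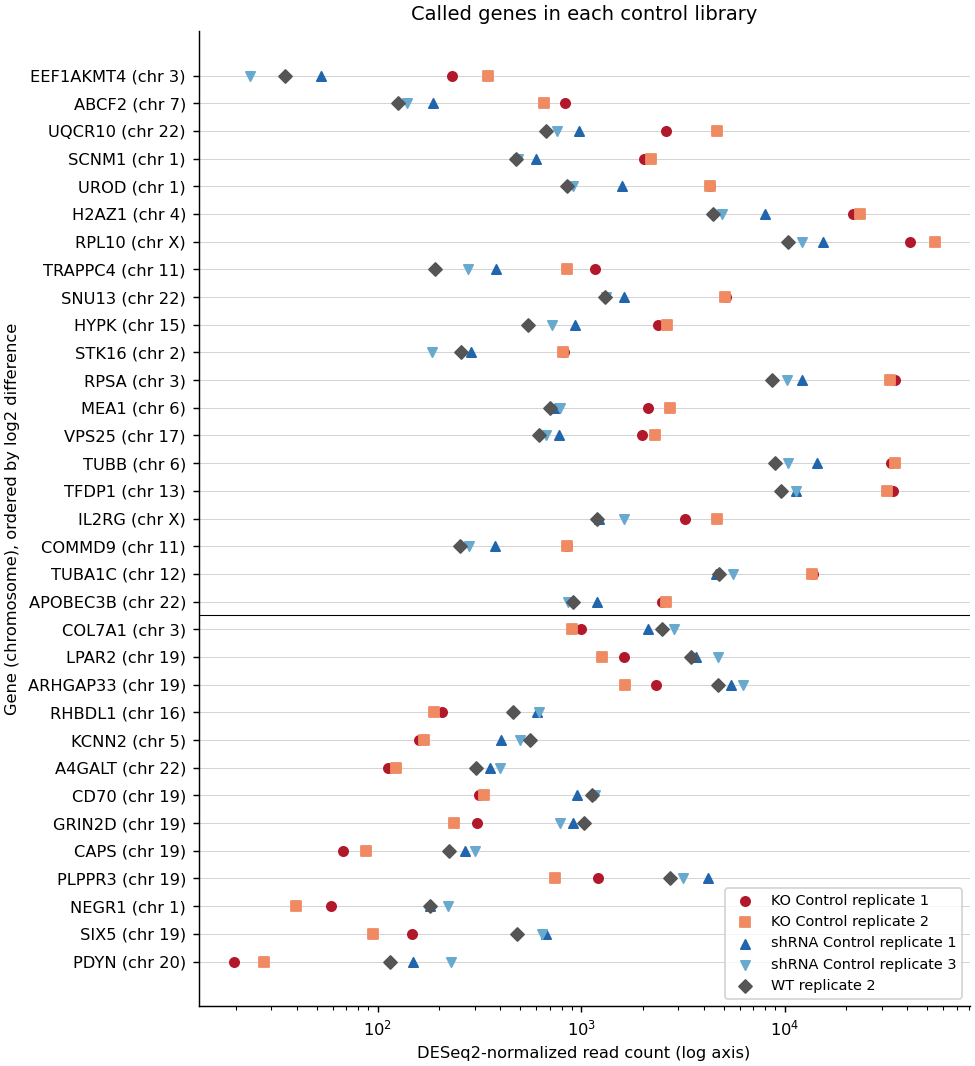
Each row is 1 of the 33 called genes with its chromosome, and each symbol is the DESeq2-normalized count (log axis) of 1 control library, with KO Control in red and orange, shRNA Control in blue and WT in grey. Above the line the 20 higher genes have both KO Control libraries to the right of the 3 others, and below it the 13 lower genes have both to the left.

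Another 10 genes rose by log2 differences of 1.38 to 1.77, and were named after their values were seen unless they belong to a list below. They were STK16 (a Golgi-associated kinase), RPSA (a protein of the small ribosomal subunit), MEA1, VPS25 (an ESCRT-II subunit), TUBB (a beta tubulin), TFDP1 (the dimer partner of E2F factors), IL2RG (the common gamma chain of cytokine receptors), COMMD9, TUBA1C (an alpha tubulin) and APOBEC3B (a DNA cytidine deaminase). TFDP1 had 34000 and 31940 normalized counts in KO Control, against 11320, 11400 and 9571, and IL2RG had 3249 and 4666, against 1217, 1616 and 1191. Processed pseudogenes are named after 8 of the 20 higher genes (40.0%), 74 of them after RPSA, 19 after RPL10 and 8 after TUBB, and after 13.3% of all genes tested. Reads of such genes may have been split among near-identical copies. A protein-coding gene on the same strand overlaps 6 of the 20, among them SCNM1 (TNFAIP8L2), HYPK (SERF2) and EEF1AKMT4 (its read-through with ECE2). One on the other strand overlaps 9 of the 20. Among the 13 lower genes these counts were 1 and 0, and the share over all genes tested was not computed. Whether counting used strand is not given in the sources used here. The levels of the overlapped genes are uncertain in that respect. SERF2, which overlaps HYPK, had 26912 and 24968 in KO Control, against 26821, 20538 and 22504, a difference of 0.16 ± 0.26 (limma adjusted p = 0.955).

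Among the genes called by limma the largest fall was that of PDYN, which encodes prodynorphin, the precursor of opioid peptides. It had 19.6 and 27.6 normalized counts in KO Control, against 148, 229.6 and 114 in the other controls, a log2 difference of -2.71 ± 0.40 (SE, limma adjusted p = 0.025). SIX5, a homeobox transcription factor gene, had 148 and 94.8 in KO Control, against 673, 642 and 481, a difference of -2.31 ± 0.29 (adjusted p = 0.0192). NEGR1, a neuronal adhesion protein of the immunoglobulin family, had 58.7 and 39.5 in KO Control, against 180.1, 221 and 181, a difference of -1.98 ± 0.32 (adjusted p = 0.0397). In each of these the KO Control pair lay far below the lowest of the other libraries. PLPPR3, a neuronal relative of lipid phosphate phosphatases, had 1209 and 739 in KO Control, against 4201, 3148 and 2720 (-1.80 ± 0.28, adjusted p = 0.0338). CAPS, which encodes the calcium-binding protein calcyphosine, had 67.4 and 87.6 in KO Control, against 269.7, 302 and 224 (-1.76 ± 0.29, adjusted p = 0.0397). GRIN2D, a subunit of NMDA-type glutamate receptors, had 309 and 236 in KO Control, against 912, 788 and 1030 (-1.74 ± 0.24, adjusted p = 0.0235). KO Control replicate 2 was the lower of the pair for SIX5, NEGR1, PLPPR3 and GRIN2D, and replicate 1 for PDYN and CAPS. The annotated places are PDYN at chr20:1978757-1994285 (minus strand), SIX5 at chr19:45764785-45769226 (minus strand), NEGR1 at chr1:71395940-72282734 (minus strand), PLPPR3 at chr19:812488-821977 (minus strand), CAPS at chr19:5911707-5915877 (plus strand) and GRIN2D at chr19:48394875-48444931 (plus strand).

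CD70, the ligand of the costimulatory receptor CD27, had 315 and 332 normalized counts in KO Control, against 956, 1169 and 1130 in the other controls, a log2 difference of -1.74 ± 0.23 (SE, limma adjusted p = 0.0235). A4GALT, the synthase of the glycolipid Gb3, had 112 and 122 in KO Control, against 354, 397 and 303 (-1.57 ± 0.26, adjusted p = 0.0397). KCNN2, a calcium-activated potassium channel, had 160 and 168 in KO Control, against 401, 499.5 and 557.5 (-1.55 ± 0.25, adjusted p = 0.0397). The KO Control pair was close for all of them. RHBDL1, a gene of the rhomboid protease family, had 208 and 189 in KO Control, against 604, 620.3 and 464 (-1.49 ± 0.25, adjusted p = 0.0397). The other 3 that fell, named after their values were seen, were ARHGAP33 (a GTPase-activating protein), LPAR2 (a lysophosphatidic acid receptor) and COL7A1 (the collagen of anchoring fibrils), by log2 differences of -1.47 to -1.38. Of the 13 genes, 7 lie on chromosome 19. DESeq2 called all 13, while edgeR called only SIX5, GRIN2D and CD70, which all lie on chromosome 19. The annotated places are CD70 at chr19:6583183-6604103 (minus strand), A4GALT at chr22:42692112-42721298 (minus strand), KCNN2 at chr5:114055545-114496500 (plus strand) and RHBDL1 at chr16:675666-678268 (plus strand).

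Promoter sequences are shown for the 2 genes of each direction with the lowest p among those that have an entry in RefSeq's table (GRCh38.p14), which holds 18 of the 20 higher and 9 of the 13 lower genes. They are the 250 bases before the annotated start, on the gene's strand, 5′ to 3′. Capitals mark matches, on either strand, to 4 motifs. The GC box was searched as GGGCGG. The CCAAT box was searched by the letters of its name. The TATA box was searched as TATAAA. The core bound by ETS factors was searched as CCGGAA. A pair of GC boxes can overlap, and none of the other motifs contains another. SCNM1 lies at chr1:151165894-151166143 on the plus strand and ABCF2 at chr7:151227206-151227455 on the minus strand, both higher in KO Control. GRIN2D lies at chr19:48393418-48393667 on the plus strand and PDYN at chr20:1992807-1993056 on the minus strand, both lower. These windows follow the RefSeq starts, and those of SCNM1 and PDYN lie inside the GENCODE gene spans given above, whose starts differ.
SCNM1: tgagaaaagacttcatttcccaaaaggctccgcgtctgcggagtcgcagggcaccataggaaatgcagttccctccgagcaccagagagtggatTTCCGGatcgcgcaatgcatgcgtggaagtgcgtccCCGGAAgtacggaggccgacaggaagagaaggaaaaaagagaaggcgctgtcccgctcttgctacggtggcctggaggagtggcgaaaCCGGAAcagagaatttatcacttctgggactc
ABCF2: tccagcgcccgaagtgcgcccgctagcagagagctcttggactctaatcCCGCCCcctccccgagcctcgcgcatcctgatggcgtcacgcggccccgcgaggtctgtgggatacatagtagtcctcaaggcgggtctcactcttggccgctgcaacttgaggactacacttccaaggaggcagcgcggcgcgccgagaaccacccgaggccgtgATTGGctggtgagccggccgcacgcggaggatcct
GRIN2D: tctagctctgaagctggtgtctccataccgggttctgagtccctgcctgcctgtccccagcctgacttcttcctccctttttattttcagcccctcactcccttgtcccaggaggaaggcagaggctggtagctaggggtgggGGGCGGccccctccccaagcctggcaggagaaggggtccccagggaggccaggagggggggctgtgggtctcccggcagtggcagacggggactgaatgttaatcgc
PDYN: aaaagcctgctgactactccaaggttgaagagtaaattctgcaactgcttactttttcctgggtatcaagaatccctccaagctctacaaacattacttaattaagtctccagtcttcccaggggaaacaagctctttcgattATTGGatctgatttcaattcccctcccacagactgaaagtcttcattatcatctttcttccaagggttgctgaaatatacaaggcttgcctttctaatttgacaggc
The SCNM1 window holds 3 ETS core matches, that of ABCF2 holds 1 GC box and 1 CCAAT box, that of GRIN2D 1 GC box, and that of PDYN 1 CCAAT box. GC content was 56.0% in SCNM1 and 66.4% in ABCF2, against 63.6% in GRIN2D and 40.8% in PDYN. A CCAAT box was found in 10 of 18 windows of higher genes (55.6%) and 2 of 9 of lower genes (22.2%), against 34.7% of the 9999 windows of tested genes. A GC box was found in 9 of 18 windows of higher genes and 6 of 9 of lower genes (66.7%), against 66.0% of all. The ETS core was in 22.2% and 11.1%, against 24.9% of all, and the TATA box in 11.1% and 11.1%, against 5.46% of all. These shares are descriptions of letters in the window.

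The levels of the called genes in the other 14 libraries were then set beside those of the KO Control. For all 20 higher genes, all 8 libraries of ATF7 and JDP2 knockout clones were below both KO Control libraries. The genes were chosen for high values in these KO Control libraries, so lower values elsewhere are in part built in. Shares over all genes tested are not given beside these counts, which are descriptions only. H2AZ1 had 3104 to 6735 normalized counts in the clone libraries (median 3902), against 21520 and 23430 in KO Control. UROD had 468 to 1046 in the clones (median 741), against 4303 and 4313 in KO Control. For 10 of the 20 genes all 14 libraries were below, and so were 269 of the 280 single values. The other 11 values came from 2 knockdown libraries. IRF2BP2 shRNA1 replicate 1 reached the KO Control range for 9 of the 20 genes, with a median log2 deviation of 1.59 from the mean of the 3 other controls, and shRNA2 replicate 3 for 2 genes, with a median of 1.29. In the remaining 12 libraries that median lay between -0.42 and 0.41. The other 2 libraries of each hairpin were among these 12, with medians of -0.19 and 0.08 for shRNA1 and of 0.41 and 0.003 for shRNA2.

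The 13 lower genes were likewise chosen for low KO Control values, and their counts are also descriptions only. All 8 clone libraries were above both KO Control libraries for 2 of the 13 (RHBDL1 and COL7A1), and all 14 for COL7A1 alone, with 130 of 182 values above. SIX5 had 4.49 to 1652 normalized counts in the clones and 165 to 453 in the knockdown, against 148 and 94.8 in KO Control, and 4 of the 8 clone libraries were below both KO Control libraries. CD70 had 51.8 to 1305 in the clones, with 5 of 8 libraries below both, against 315 and 332 in KO Control. PDYN had 3.62 to 13.1 in the 6 knockdown libraries, below both KO Control libraries, and up to 114 in the clones. The clones had levels of SIX5, CD70 and PDYN on both sides of the KO Control range.

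Because 7 of the 13 lower genes (SIX5, PLPPR3, CAPS, GRIN2D, CD70, ARHGAP33 and LPAR2) and 0 of the 20 higher genes lie on chromosome 19, the differences were laid out by chromosome. That layout was chosen after the called genes were seen and is a description with no test. Chromosome 19 holds 972 of the genes tested, 7.89% of those with a place in the annotation. Their median log2 difference was -0.37, with 86.1% of them below 0. Both KO Control libraries were below all 3 others for 343 of them (35.3%) and above for 25 (2.57%), against 9.96% and 12.6% of the genes elsewhere. On the 22 other nuclear chromosomes the median lay between -0.02 and 0.05, and the share below all others between 3.61% and 15.2%. Without the called genes the chromosome 19 median was still -0.37, over 965 genes. It was -0.49 for genes with a mean of 10 to 100 normalized counts, -0.48 between 100 and 1000, and -0.33 above 1000 (200, 279 and 493 genes). The median over genes elsewhere in these ranges was -0.13, -0.03 and 0.04.

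Chromosome 19 genes are rich in G and C (median transcript GC content 59.8%, against 48.8% elsewhere), and GC-rich genes were low in KO Control replicate 2. Each gene's deviation from the other controls was therefore read against the median of genes elsewhere in the same decile of GC content in the same library. For a KO Control library the deviation is from the mean of the 3 other controls, and for 1 of these from the mean of its other two. Matched in this way, chromosome 19 stood at -0.30 in KO Control replicate 1 and -0.30 in replicate 2, against 0.006 in shRNA Control replicate 1, -0.05 in shRNA Control replicate 3 and 0.02 in WT replicate 2. Unmatched it stood at -0.14 and -0.59 in the KO Control libraries, so the pair differed before the match and not after it. In the 6 pairings of a KO Control library with another control library the matched median lay between -0.33 and -0.28. Among the 3 others it lay between -0.04 and 0.04, and KO Control replicate 2 against replicate 1 gave -0.01. On the other 22 nuclear chromosomes the matched medians of the KO Control libraries lay between -0.07 and 0.08.

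**Figure D3:**
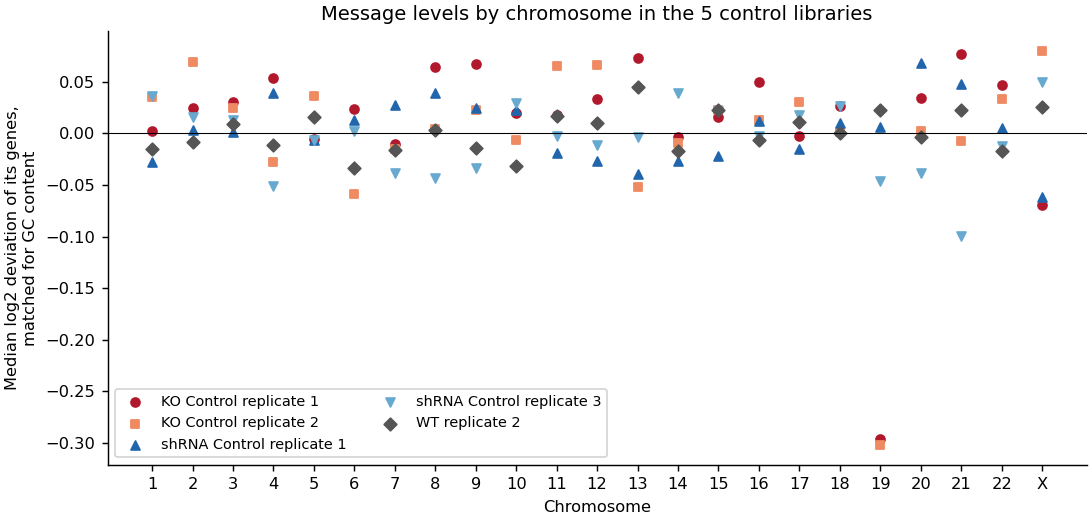
For each nuclear chromosome the y axis gives the median log2 deviation of its tested genes in each of the 5 control libraries (symbols), from the mean of the other control libraries that are not KO Control and matched for transcript GC content. On chromosome 19 the KO Control libraries lie at -0.30 and -0.30, while all other values shown lie between -0.10 and 0.08.

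The lower level ran along the whole chromosome. With its tested genes put in order and divided into 20 bins of 48 or 49 neighbours, the matched median was below 0 in 20 of 20 bins in both KO Control libraries. It ranged from -0.48 to -0.07 in replicate 1 and from -0.35 to -0.18 in replicate 2. In shRNA Control replicates 1 and 3 and WT replicate 2 it was below 0 in 7, 14 and 6 bins, with a lowest value of -0.15. Both ends were included: the first bin (hg38 bases 301444 to 1536046) had an unmatched difference of -0.46 and the last (56595264 to 58573575) of -0.30.

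**Figure D4:**
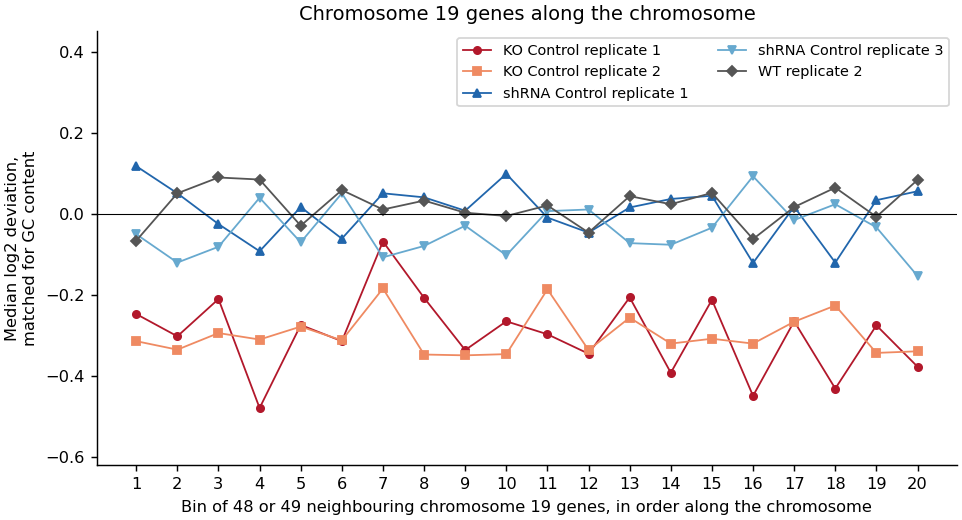
The x axis is the order of 20 gene bins along chromosome 19 and the y axis the median log2 deviation in each control library, matched for GC content. Both KO Control lines stay below 0 in all 20 bins, and the 3 other lines vary around 0.

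Among the other libraries the same matched value for chromosome 19 was -0.38 and -0.36 in ATF7 KO clone 1 and -0.39 and -0.36 in JDP2 KO clone 2, below 0 in 20 of 20 bins in all 4. It was 0.11 and 0.22 in ATF7 KO clone 2, and -0.14 and 0.02 in JDP2 KO clone 1. That clone varied along the chromosome: in bins 4, 6, 8 and 9 it lay between -0.74 and -0.36 in replicate 1 and between -0.46 and -0.38 in replicate 2, and in bins 12 to 15 all values were above 0. The 6 knockdown libraries lay between -0.04 and 0.07. Both KO Control libraries thus stood with ATF7 KO clone 1 and JDP2 KO clone 2 on this measure, and apart from shRNA Control, WT and every knockdown library. IRF2BP2 shRNA1 replicate 3 had an unmatched value of -1.08 and a matched one of -0.02. The files analysed here measure messages only.

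Primary granule genes encode proteases and other proteins that granulocyte and monocyte precursors store. Of 14 genes tested limma called 0 (6 at an unadjusted p under 0.05), edgeR 0 and DESeq2 4 (ELANE, AZU1, PRTN3 and CFD, all lower). Of the 14, 5 had both KO Control libraries below all others (35.7%, against 12% of all genes tested) and the list median was -0.50, against -0.02 over all genes tested. All 5 lie on chromosome 19 (ELANE, PRTN3, AZU1, CFD and PRSS57), where the median was -1.25, and 0 of the 9 members elsewhere had both below, with a median of -0.21. ELANE, neutrophil elastase, had 27080 and 17260 normalized counts in KO Control, against 91740, 62170 and 57250, a log2 difference of -1.67 ± 0.32 (SE, limma adjusted p = 0.0656). PRTN3, proteinase 3, had 25890 and 19940 in KO Control, against 73670, 45810 and 46860 (-1.25 ± 0.31, adjusted p = 0.157). AZU1, azurocidin, had 16180 and 11370 in KO Control, against 28630, 36000 and 24010 (-1.10 ± 0.28, adjusted p = 0.169). The protease gene CTSG on chromosome 14 overlapped between the groups, at 28020 and 20010 in KO Control, against 34040, 18890 and 21980. The differences of the 5 genes were larger than the chromosome 19 median, and none passed the limma test.

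The GC content of the called genes also differed by direction. The 20 higher genes had a transcript GC content of 46.6% to 58.5% (median 51.6%), and the 13 lower genes had a median of 62.9%, against 49.9% over all genes tested. Transcript length had a median of 1930 bases in the higher and 3320 in the lower genes, against 3370 in all. In the decile of genes with the highest GC content (62.6% to 74.5%) both KO Control libraries were below all others for 31.7% of genes and above for 0.974%, with a median log2 difference of -0.33. Within that decile the median was -0.54 for the 297 genes on chromosome 19 and -0.25 for genes elsewhere. In the deciles from 46.7% to 56.3%, both were above all others for 20.3% to 23.8% of genes. The KO Control libraries differed from each other along the same axis: replicate 2 minus replicate 1 was 0.53 in the lowest decile and -0.65 in the highest. With log2 values centred within GC deciles in each library, 53 genes were called, 35 higher and 18 lower, and 27 of the 33 stayed called. All 33 kept their direction.

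**Figure D5:**
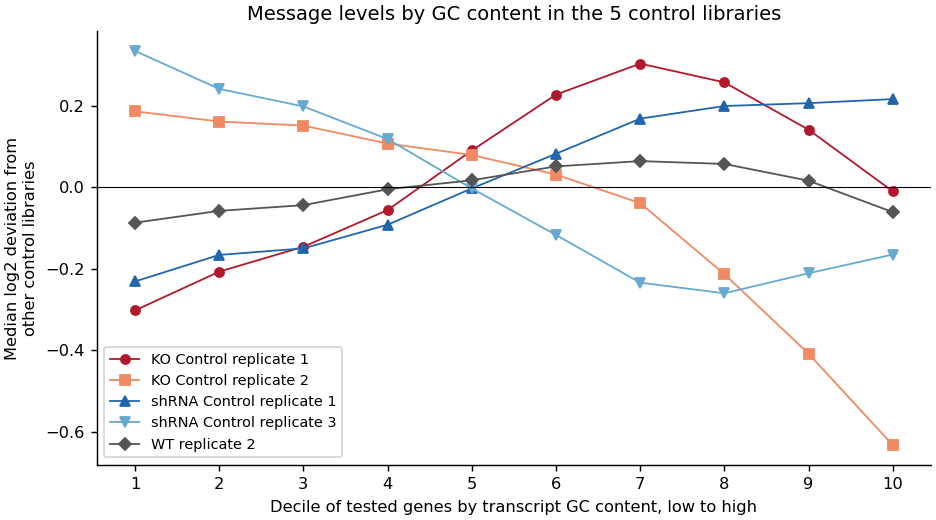
The x axis is the decile of tested genes by transcript GC content, from low to high, and the y axis the median log2 deviation of each control library from the mean of the other control libraries that are not KO Control. KO Control replicate 2 falls to -0.63 in the highest decile, where replicate 1 is at -0.01, and both are above 0 in deciles 5 and 6.

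Gene lists were read by their counts beside those of all genes, with no test of a list. Over all genes tested limma called 0.267%, and both KO Control libraries were above all others for 11.7% and below for 12%, the shares beside which each count below stands. Of 40 lists, 5 held called members, all higher. Cytosolic ribosomal proteins had 2 of 78 called (RPL10 and RPSA), 14 with both KO Control libraries above and 8 with both below, and a median log2 difference of -0.08. RPSA had 34940 and 32810 normalized counts in KO Control, against 12170, 10270 and 8626, a difference of 1.72 ± 0.26 (SE, limma adjusted p = 0.025). The list median lay close to that of all genes (-0.02), and DESeq2 called 8 members, all higher. Tubulin and actin genes had 2 of 18 called, 7 above (38.9%, against 11.7% of all genes) and 0 below. TUBB had 33200 and 34830 in KO Control, against 14340, 10310 and 8958 (1.63 ± 0.27, adjusted p = 0.0397), and TUBA1C had 13810 and 13570, against 4617, 5547 and 4749 (1.47 ± 0.23, adjusted p = 0.0338). ACTB, beta actin, had 444700 and 338800 in KO Control, against 364700, 299500 and 372600 (0.17 ± 0.35, adjusted p = 0.972). The 7 genes above were all tubulins, while TUBA1A, TUBB2A, TUBB4B and TUBB6 overlapped between the groups, as did the actin and thymosin genes.

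Heme synthesis and breakdown genes had 1 of 15 called (UROD), 6 above and 2 below (11.7% and 12% of all genes), with a median of 0.26. BLVRA, biliverdin reductase A, had 895 and 1320 in KO Control, against 531, 579 and 466 (1.05 ± 0.25, limma adjusted p = 0.141). Nuclear genes of oxidative phosphorylation had 1 of 77 called (UQCR10), 13 above and 12 below, with a median of -0.04. Variant histone and high mobility group genes had 1 of 16 called (H2AZ1), 4 above and 1 below, with a median of 0.17. In each of these 3 lists limma and edgeR called 1 gene, with a log2 difference of 2.00 to 2.13. DESeq2 also called BLVRA of heme breakdown, and COX4I1, ATP5MC1 and ATP5MC2 of oxidative phosphorylation, all higher.

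Proteasome genes, whose products degrade tagged proteins, had 0 of 38 called by limma (7 at an unadjusted p under 0.05, 0 by edgeR and 4 by DESeq2), with 14 above (36.8%, against 11.7% of all genes) and 1 below, and a median log2 difference of 0.27. PSMB1, a subunit of the core particle, had 6231 and 5183 normalized counts in KO Control, against 2983, 2189 and 2321 (1.20 ± 0.24, limma adjusted p = 0.075). PSMC5, an ATPase of the cap, had 1995 and 1882, against 1047, 932 and 941 (0.99 ± 0.21, adjusted p = 0.0985). Oxidative stress genes had 0 of 21 called by limma (3 at an unadjusted p under 0.05, 0 by edgeR and 2 by DESeq2), 8 above (38.1%, against 11.7%) and 3 below, with a median of 0.25. FTL, ferritin light chain, which lies on chromosome 19, had 93410 and 130700 in KO Control, against 58790, 37710 and 47550 (1.23 ± 0.31, adjusted p = 0.167). Beside that 11.7%, heat shock genes had 5 of 18 above and 0 below (median 0.28), and MYC and ribosome biogenesis genes 10 of 47 above and 0 below (median 0.20). Mitochondrial ribosomal proteins had 17 of 76 above and 2 below (median 0.11). None of these lists held a member called by limma.

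The 13 mitochondrially encoded messages all had a negative difference (median -0.44), but 0 had both KO Control libraries below all others and 0 were called by limma, edgeR or DESeq2. MT-CO1, a subunit of complex IV, had 148800 and 249600 normalized counts in KO Control, against 174900, 371200 and 306800 (-0.49 ± 0.41, limma adjusted p = 0.847). They took 2.42% and 4.11% of reads in KO Control, against 2.64%, 5.57% and 5.08%. The lower value of each set belonged to replicate 1 of KO Control and of shRNA Control. Interferon-stimulated genes had 0 of 40 called by limma and 1 by DESeq2 (IFITM2, higher), 6 above and 4 below (median -0.03). Proliferation genes had 0 of 51 called by limma and 1 by DESeq2 (CCNB1, higher), 4 above and 3 below (median -0.03). Monocyte and macrophage differentiation genes had 0 of 30 called by limma (5 at an unadjusted p under 0.05). DESeq2 called 3 of them (MARCO, IRF8 and APOE, all lower). The remaining lists held no gene called by limma. IGLL1, a surrogate immunoglobulin light chain among the lymphoid markers, had 30.4 and 65.8 in KO Control, against 925, 166 and 306, a difference of -2.98 ± 0.60 (limma adjusted p = 0.0762); it was called by DESeq2 and was named after its values were seen.

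With shRNA Control and WT as separate groups, limma called 0 genes in KO Control against shRNA Control, 0 in KO Control against WT and 0 in shRNA Control against WT (0% each). Genes at an unadjusted p under 0.05 numbered 710, 475 and 101, and edgeR called 0 in each. The lone WT library was assumed to vary like the other groups. All 33 called genes of the pooled comparison had the same sign against both, which the lack of overlap between the groups fixes in advance. EEF1AKMT4 differed by 2.97 from shRNA Control and 2.98 from WT, and SCNM1 by 1.98 and 2.14. SIX5 differed by -2.46 and -2.01, and CD70 by -1.71 and -1.80. Leaving out KO Control replicate 1 gave 132 calls against shRNA Control and 83 against WT, and leaving out KO Control replicate 2 gave 76 and 47. Against shRNA Control the count was 21 without its replicate 1 and 27 without its replicate 3, and shRNA Control against WT gave 11 without shRNA Control replicate 3.

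The KO Control libraries also differed from each other. Their median absolute log2 difference was 0.48, with 9.89% of genes over 2-fold apart. KO Control replicate 1 and shRNA Control replicate 3 were as far apart (0.48, 15% over 2-fold), and KO Control replicate 2 and shRNA Control replicate 1 stood at 0.43 (11.6%). By the median difference KO Control replicate 1 was closest to shRNA Control replicate 1 (0.26, 6.74% over 2-fold), and KO Control replicate 2 to shRNA Control replicate 3 (0.30, 9.39%). Against WT replicate 2 they stood at 0.32 (8.64%) and 0.36 (8.96%). By the share over 2-fold, KO Control replicate 2 was therefore closest to WT replicate 2. The 3 other control libraries were 0.23 to 0.35 apart, with 4.49% to 6.66% of genes over 2-fold.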

How the data were processed

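Gene expression was measured by mRNA sequencing of THP1 cells. The authors deposited a signal per gene and library, namely read counts scaled by the size factor of each library (DESeq2-normalized counts). Per the submitters' processing notes the genome build was hg38 and the tools were featureCounts and DESeq2. The aligner, gene models, tool versions and use of strand are not given there or in the labels. All values were whole multiples of 1 step per library (100% within 0.01 reads), so reads were recovered for depth and for the count tests.

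Genes with a mean of at least 10 over the 5 control libraries (12360 of 20423) were tested on log2(normalized count + 1), a scale that understates the change of low genes, with limma 3.58.1 (trended empirical Bayes, R 4.3.3). KO Control (2 libraries) was set against shRNA Control and WT as 1 group (3 libraries), and calls required a Benjamini-Hochberg adjusted p under 0.05 over all genes tested. A fit with 3 groups gave the other contrasts. Alternatives included edgeR 4.0.16 and DESeq2 1.42.0 on recovered reads; DESeq2 gave 1 tested gene no adjusted p. The script was tested on simulated data.

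The libraries, comparisons and gene lists were chosen with earlier results of these data known. Genes named are the targeted genes, the 10 largest rises and falls among calls with a mean of at least 50 in either group and no overlap, and of each list at most 4 called members by p, or otherwise the 2 most abundant ones; others are marked in the text or given as list or overlap examples chosen after their values were seen. Places, transcript length and GC content are from GENCODE 29 (GRCh38), matched by symbol for 12315 genes, with the GC content of the longest coding transcript. Promoters are from RefSeq. The 3 tables of the authors' own comparisons were not used.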

Additional observations from a re-analysis of the deposited data

How the results depend on the processing

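The genes called kept their direction under all 20 alternatives run, in each of which 33 were tested except without chromosome 19 genes (26). In settings that keep the deposited scaling of the libraries, the lack of overlap between the groups fixes that direction in advance. All 33 stayed called with a pseudocount of 0.5 or 5, with a mean of at least 50 (40 called in all) and with DESeq2. The count was 29 with array weights, 39 with quantile normalization, 26 of 26 without chromosome 19 genes and 53 with GC-centred values, the last 2 chosen after seeing the data. It was 2 with no filter on low values, 9 with equal column totals, 18 with edgeR and 256 with DESeq2. It was 0 with no trend in the empirical Bayes step, 0 with all libraries in the fit and 0 with shRNA Control and WT weighted equally in the 3-group fit; the cause was not tested. Leaving out 1 library gave 0 to 210 calls (0 without WT replicate 2). With the replicate number as a block, 271 genes were called (141 higher and 130 lower), but each of the numbers 1 and 2 is shared by 1 KO Control library and 1 other control, and the labels do not tie the numbers to a batch, so the numbers were not taken to pair the libraries. The same-numbered deviations correlated at 0.21 and -0.04, but those of the KO Control pair mirror each other by centring, so these values are no check of pairing. KO Control against shRNA Control gave 1 call with quantile normalization and 21 to 132 without 1 library, KO Control against WT 47 to 83, and shRNA Control against WT 0 to 11. With 2 libraries against 3, or 1 library in an arm, the spread rests on few values, and 1 library decides the count.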
